A study of Mus musculus with 12 samples.

Results

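The genes described here are 8 genes of peroxisome proliferator-activated receptor alpha (PPARα) and of fatty acid oxidation, namely Ppara, Cpt1a, Acadm, Ehhadh, Pdk4, Angptl4, Cyp4a10 and Plin2. They were taken by symbol, after the Ensembl gene identifiers in the count files were matched to the GENCODE M21 annotation, and make up 8 of the 46078 genes listed in the files. Of these, 7 had enough reads to be among the 15823 genes tested, and Cyp4a10 did not.

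PPARα is a nuclear receptor that binds fatty acids and, as a partner of the retinoid X receptor, switches on genes for the uptake and oxidation of fatty acids. It is best known from the fasting liver, and it also acts in the small intestine, where the absorptive enterocytes take up dietary fat. The product of Cpt1a controls the entry of long-chain fatty acids into mitochondria. Acadm encodes medium-chain acyl-CoA dehydrogenase, the first step of mitochondrial beta-oxidation, and Ehhadh encodes the peroxisomal bifunctional enzyme, which acts on shortened and dicarboxylic fatty acids. Pdk4 encodes a kinase that inactivates pyruvate dehydrogenase and so spares glucose, Angptl4 an inhibitor of lipoprotein lipase, Cyp4a10 a fatty acid omega-hydroxylase and Plin2 a protein coat of lipid droplets.

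RNA was sequenced from scrapings of the epithelium of the proximal ileum of male C57BL/6 mice, 12 libraries in 4 groups of 3 biological replicates. The mice were gavaged with sesame oil vehicle or with 3, 10 or 30 µg/kg TCDD, the dioxin that is the prototype ligand of the aryl hydrocarbon receptor (AhR). Gavage was given every 4 days for 28 days, and by the labels the mice were 28 days old at the first dose and 56 days old at collection. The animals carried no engineered allele according to the labels, and a scraping holds every cell type of the mucosal surface. The labels number no replicates, so libraries were numbered in the order of their accessions.

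The counts assigned to genes were between 11695887 and 22180274 per library. Cyp1a1, the AhR target used as a check of dosing, ranged from 19.0 to 27.5 CPM (read counts scaled to the size of the library) in vehicle. With 3 µg/kg it ranged from 22.2 to 141 CPM, with 10 µg/kg from 872.5 to 1333 CPM and with 30 µg/kg from 2608 to 3251 CPM. All 14 absorptive enterocyte markers were detected in every library, and their summed level was between 55459 and 88430.5 CPM. The hepatocyte marker Alb had at most 3 counts and Fgb had none, and 3 of the 6 liver markers were at 0 in at least 1 library. The 6 adipocyte markers summed to between 37.7 and 68.6 CPM, and 5 of them were at 0 in at least 1 library. Adipoq, Lep and Plin1 had at most 21, 6 and 35 counts, whereas Cidec had between 553 and 1376 counts. The libraries also differed in clock state. A clock score, the mean of signed z values over 9 clock transcripts, was positive in 6 libraries (vehicle replicates 2 and 3, replicate 1 at 3 µg/kg, replicate 1 at 10 µg/kg, and replicates 1 and 2 at 30 µg/kg) and negative in the other 6. Every dose group held both states, the states come from the measured transcripts and not from the labels, and no test was made between them. In replicates 1 to 3 the score was -0.991, 1.17 and 1 in vehicle and 0.868, -0.745 and -0.832 at 3 µg/kg. It was 0.92, -1.09 and -1.18 at 10 µg/kg and 0.789, 0.476 and -0.388 at 30 µg/kg. An effect of TCDD on the score was not tested, and fits adjusted for the score may also remove part of a dose effect.

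The DNA before RefSeq start sites gives context for a response to either receptor. RefSeq promoters (build GRCm38.p6) were matched for 6 of the 8 members, all but Angptl4 and Cyp4a10, and the 250 bases before each start were searched on both strands. Of the 250 bases, 150 lay in GENCODE M21 exons of the members for Ppara, 31 for Pdk4, 16 for Cpt1a and 1 for Plin2. None did for Ehhadh or Acadm. The windows of Ppara and Cpt1a lay wholly within the annotated span of the gene. The core of the dioxin response element (GCGTG, or CACGC on the other strand) was found in 5 of these 6 windows, all but that of Cpt1a. The same core lay in 28.2% of all 32851 promoter windows of this length. The PPAR half-site AGGTCA was found in the windows of Cpt1a, Acadm and Plin2, against 14% of all windows. The full direct repeat (DR1, 2 such half-sites spaced by 1 base) was found in no member and in 0.0335% of all windows. The clock E-box CACGTG, which shares 4 letters with CACGC, was in no member's window and in 6.02% of all, and the D-box TTATGNAA in none and in 3.07%. The windows of Ehhadh (chr16:21787835-21788084, minus strand) and Acadm (chr3:153944644-153944893, minus strand) are printed because these enzymes catalyze beta-oxidation in peroxisomes and in mitochondria, the former being the member with a difference among the dose groups. Each is written 5′ to 3′ along its gene, with the dioxin response element core and the PPAR half-site in capitals.
Ehhadh: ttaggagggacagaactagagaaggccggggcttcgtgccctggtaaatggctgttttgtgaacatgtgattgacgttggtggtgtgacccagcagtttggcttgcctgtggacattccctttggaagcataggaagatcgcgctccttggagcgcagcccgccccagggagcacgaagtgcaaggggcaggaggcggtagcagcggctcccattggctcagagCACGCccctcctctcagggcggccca
Acadm: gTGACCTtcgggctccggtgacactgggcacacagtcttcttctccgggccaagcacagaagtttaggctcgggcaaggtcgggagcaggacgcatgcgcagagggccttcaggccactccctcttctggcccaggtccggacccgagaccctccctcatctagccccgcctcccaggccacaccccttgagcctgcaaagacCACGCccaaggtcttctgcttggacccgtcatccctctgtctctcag
The core in the Ehhadh window begins 26 bases before the start site, and that in the Acadm window 47 bases before it. A match of letters is a description of the window and not a bound site, and binding was not measured in these files.

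Compared per length of exon (CPM divided by kilobases of exon, RPKM), Ehhadh was the most abundant member in vehicle, at 36.4 ± 3.04 (SD, n = 3). In every vehicle library it lay above the values of all other members. Acadm followed at 22.2 ± 1.76, a range that replicate 3 of Angptl4 reached. Angptl4 (14.3 ± 7.69), Ppara (10.6 ± 3.89), Cpt1a (10.4 ± 0.486), Pdk4 (9.26 ± 5.0) and Plin2 (7.46 ± 1.3) followed, and neighbours in that order differed by less than their spread. Cyp4a10 was at 0.0851 ± 0.0573 RPKM. The members also differed in how much they varied. Over the 12 libraries, the highest CPM was 1.27 times the lowest for Acadm, 1.4 times for Cpt1a, 1.62 times for Ehhadh and 1.74 times for Plin2. For Angptl4, Ppara and Pdk4 it was 3.94, 4.31 and 7.78 times the lowest.

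The comparisons with vehicle asked whether these genes responded to TCDD at each dose. The test was edgeR's quasi-likelihood test with Benjamini-Hochberg (BH) adjustment over the 15823 genes, and a call needed both an adjusted p under 0.05 and at least a 1.5-fold change. None of the 7 tested members was called at 3 µg/kg, where 0.228% of all genes were called, at 10 µg/kg (0.613%) or at 30 µg/kg (3.97%). DESeq2 and limma-voom called none at any of these doses either. At an unadjusted p under 0.05 there was no member at 3 µg/kg (11.4% of all genes), 1 member at 10 µg/kg, Plin2 (15.9%), and 1 at 30 µg/kg, Ehhadh (21.6%). Between 10 and 3 µg/kg none was called (0.158% of all genes) and 0 had an unadjusted p under 0.05 (3.3%). Between 30 and 10 µg/kg none was called (2.77% of all genes), 2 members, Pdk4 and Ehhadh, had an unadjusted p under 0.05 (21%), and 1, Ehhadh, had an adjusted p under 0.05 (4.69%). In the trend over dose rank none was called (3.29% of all genes), and Cpt1a alone had an unadjusted p under 0.05 (19.7%). DESeq2 and limma-voom again called no member in these 3 tests. In the joint test of the 4 groups for any difference, which uses the adjusted p alone and passed 6.78% of all genes, 1 member passed, namely Ehhadh.

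**Figure D1:**
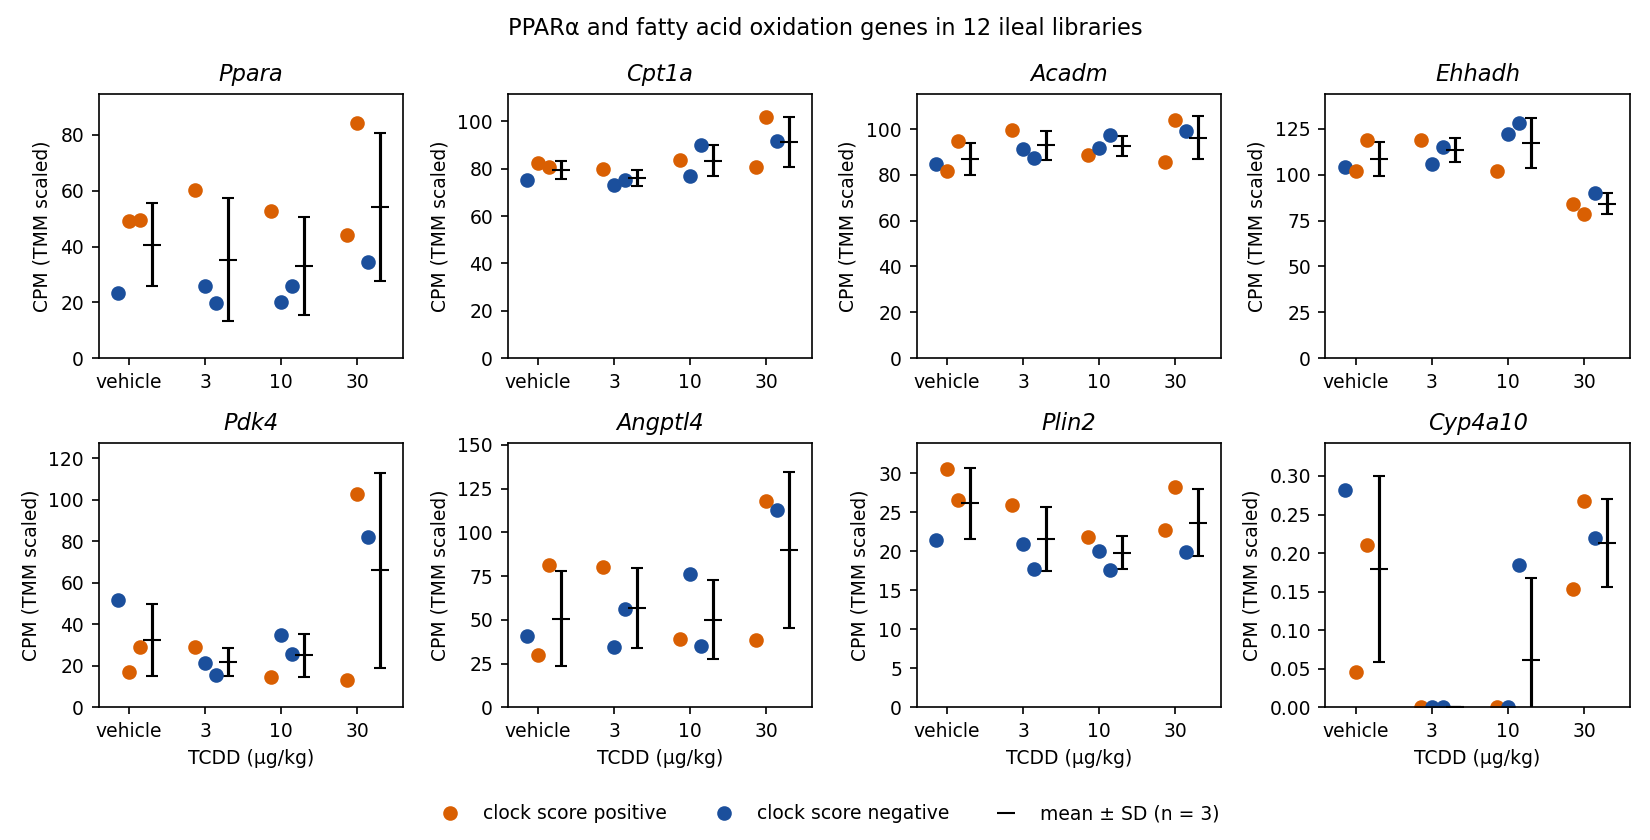
CPM of the 8 members in each of the 12 libraries (y axes from 0, one scale per gene) by TCDD dose (x axes). Points are libraries, coloured by the sign of the clock score, and bars are the mean ± SD of 3 libraries. Ehhadh lies between 78.6 and 90.2 CPM at 30 µg/kg, below all other libraries, while the 3 libraries of 30 µg/kg are widely spread for Pdk4 (13.3 to 103 CPM) and Angptl4 (38.3 to 118 CPM).

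Ehhadh (ENSMUSG00000022853, chromosome 16, 21761287 to 21787807) was lowest at the highest dose. In vehicle replicates 1 to 3 it had 104, 102 and 119 CPM. At 3 µg/kg it had 119, 106 and 115 CPM, and at 10 µg/kg 102, 122 and 128 CPM. At 30 µg/kg it had 84.0, 78.6 and 90.2 CPM, so all 3 libraries of this dose lay below the 9 others. Of all genes tested, 4.87% were separated in this way, and Ehhadh was the single member that was. The groups of vehicle, 3 and 10 µg/kg overlapped with each other. The adjusted p for any difference among the 4 groups was 0.0442 (edgeR, BH). The log2 change of 30 µg/kg from vehicle was -0.36 (SE 0.1, 1.29-fold lower, adjusted p = 0.0594), and that from 10 µg/kg was -0.47 (SE 0.1, 1.39-fold lower, adjusted p = 0.0229), which is below the 1.5-fold needed for a call. At 3 and 10 µg/kg the log2 changes from vehicle were 0.06 and 0.11 (SE 0.1 for both, adjusted p = 0.865 and 0.631).

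The size of the difference in Ehhadh varied less with the processing than its p. Over 23 alternative fits the log2 change at 30 µg/kg from vehicle was between -0.42 and -0.29, with an adjusted p between 0.0217 and 0.186. With the clock score as a covariate it was -0.37 with an adjusted p of 0.0264. The call of any difference held in 4 of the 12 fits that left out a library. It was lost without vehicle replicate 2 (adjusted p = 0.0603), replicates 2 or 3 of 3 µg/kg (0.0641 and 0.0851), replicates 2 or 3 of 10 µg/kg (0.0878 and 0.0914), and replicates 1, 2 or 3 of 30 µg/kg (0.134, 0.173 and 0.0897). It was also lost with the library index as a covariate (0.0626) and with a length and GC trend removed (0.0587). The summed absorptive enterocyte markers were between 66172 and 76447 CPM in vehicle and between 60359.7 and 77163 CPM at 30 µg/kg, so these ranges overlapped. The 8 Paneth cell markers, all detected in every library, summed to between 698 and 1069.7 CPM in vehicle and between 2218 and 3012 CPM at 30 µg/kg, and the 7 enteroendocrine markers, also detected in every library, to between 129 and 140.5 and between 209 and 239 CPM. At 30 µg/kg the 5 macrophage markers (61.8 to 68.4 CPM, against 29.8 to 52.5 CPM in the 9 other libraries), the 6 T cell markers (270.3 to 316 CPM, against 200.1 to 225 CPM in vehicle) and the 7 stem and proliferating cell markers (385 to 517 CPM, against 291 to 314 CPM in vehicle) were also above the vehicle range. At 10 µg/kg the Paneth cell markers summed to between 1136 and 1539.8 CPM and the enteroendocrine markers to between 154 and 181 CPM. The T cell markers there summed to between 267 and 337 CPM and the stem and proliferating cell markers to between 385 and 526 CPM. The macrophage markers summed to between 29.8 and 46.9 CPM at this dose. The part of these cell types in the lower Ehhadh level was not tested. In bulk tissue, fewer cells of a type and less RNA per cell cannot be told apart.

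Cpt1a and Acadm, which stand for mitochondrial entry and oxidation, were nearly level. Cpt1a (ENSMUSG00000024900, chromosome 19, 3322334 to 3385733) had 75.2, 82.4 and 80.7 CPM in vehicle and 80.0, 73.2 and 75.2 CPM at 3 µg/kg. It had 83.5, 76.8 and 89.8 CPM at 10 µg/kg and 80.9, 102 and 91.5 CPM at 30 µg/kg. At the top dose 2 of 3 libraries lay above the vehicle range, and the third lay within it. The top dose differed from vehicle by 0.20 on the log2 scale (SE 0.1, edgeR adjusted p = 0.249), and the change over the whole dose range in the trend test was 0.22 (SE 0.1, unadjusted p = 0.0391, adjusted p = 0.225). Acadm (ENSMUSG00000062908, chromosome 3, 153922357 to 153944632) had 84.6, 81.5 and 94.6 CPM in vehicle and 99.7, 91.5 and 87.4 CPM at 3 µg/kg. It had 88.8, 91.9 and 97.4 CPM at 10 µg/kg and 85.7, 104 and 99.0 CPM at 30 µg/kg. All groups overlapped. The top dose differed from vehicle by 0.14 on the log2 scale (SE 0.1, adjusted p = 0.415).

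Pdk4 and Angptl4 had the largest fold changes among the tested members at 30 µg/kg, with large errors. Pdk4 (ENSMUSG00000019577, chromosome 6, 5483351 to 5496309) had 51.6, 17.0 and 28.9 CPM in vehicle, 29.2, 21.3 and 15.8 CPM at 3 µg/kg, and 14.5, 34.8 and 25.8 CPM at 10 µg/kg. At 30 µg/kg it had 13.3, 103 and 82.1 CPM. Replicate 1 of this dose was thus the lowest of all 12 libraries, and replicates 2 and 3 were the highest. The log2 change to 30 µg/kg was 1.02 from vehicle (SE 0.58, edgeR adjusted p = 0.336) and 1.39 from 10 µg/kg (SE 0.6, adjusted p = 0.201). Without replicate 1 of 30 µg/kg these changes were 1.51 (adjusted p = 0.0755) and 1.88 (adjusted p = 0.0385), the second of which is a call (and the adjusted p for any difference among the groups was 0.0362), and without replicate 2 they were 0.55 (adjusted p = 0.684) and 0.92 (adjusted p = 0.514). Without vehicle replicate 1 the change from vehicle was 1.53 (adjusted p = 0.204).

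Angptl4 (ENSMUSG00000002289, chromosome 17, 33773750 to 33781830) had 40.8, 29.9 and 81.6 CPM in vehicle, 80.1, 34.3 and 56.5 CPM at 3 µg/kg, and 39.2, 76.0 and 35.2 CPM at 10 µg/kg. At 30 µg/kg it had 38.3, 118 and 113 CPM. As for Pdk4, replicates 2 and 3 of 30 µg/kg were the highest of all libraries, and replicate 1 lay within the vehicle range. Against vehicle, the fitted log2 change of the top dose was 0.82 (SE 0.47, edgeR adjusted p = 0.339). It was 1.19 without replicate 1 of 30 µg/kg (adjusted p = 0.178), 1.34 without vehicle replicate 3 (adjusted p = 0.18) and 0.55 without vehicle replicate 2 (adjusted p = 0.625). Over the 12 libraries, log2 CPM of Pdk4 and Angptl4 had a Pearson r of 0.73, a description over libraries that share dose groups. Replicates 1, 2 and 3 of 30 µg/kg had 19882816, 11695887 and 17935407 gene counts. The part of depth in the levels of both genes was not tested. The 6 smooth muscle markers, all detected in every library, summed to 82.1, 113 and 30.9 CPM in these 3 libraries, to between 50.2 and 179 CPM in vehicle, to between 13.7 and 77.2 CPM at 3 µg/kg and to between 19.8 and 31.3 CPM at 10 µg/kg. The part of muscle in these levels was not tested.

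**Figure D2:**
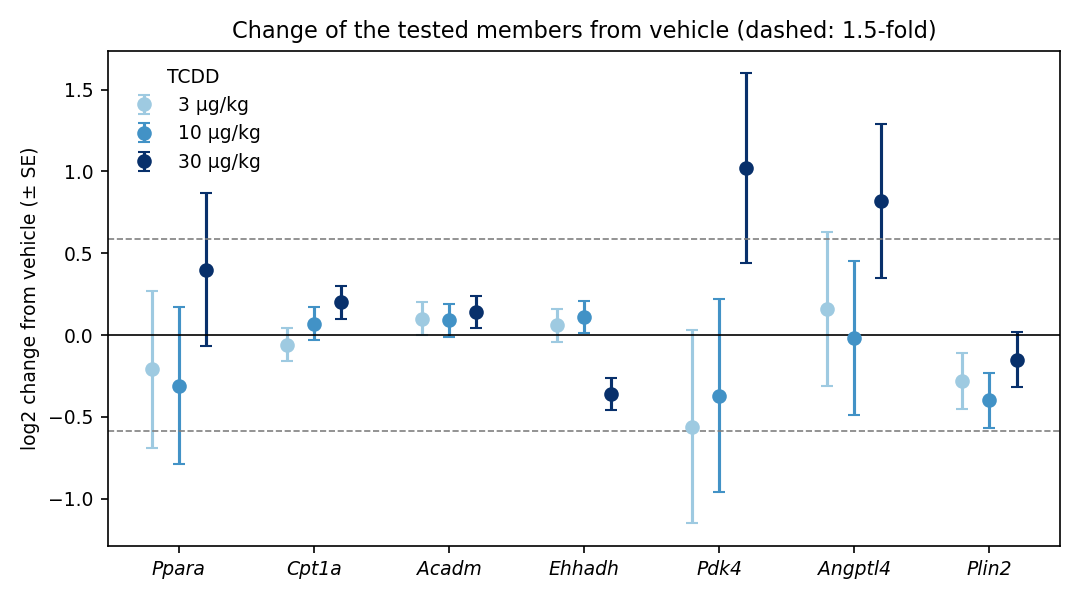
Fitted log2 change from vehicle (y axis, ± SE, edgeR) of the 7 tested members (x axis) at 3, 10 and 30 µg/kg TCDD. Dashed lines mark a 1.5-fold change. Pdk4 (1.02) and Angptl4 (0.82) lie beyond the line at 30 µg/kg with standard errors of 0.58 and 0.47, and no change was called.

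The receptor gene itself, Ppara (ENSMUSG00000022383, chromosome 15, 85734983 to 85802819), separated by the clock state of the library, while its dose groups overlapped. It had 23.5, 49.2 and 49.4 CPM in vehicle and 60.4, 25.9 and 19.6 CPM at 3 µg/kg. It had 52.9, 20 and 25.7 CPM at 10 µg/kg and 44.0, 84.3 and 34.3 CPM at 30 µg/kg. Its range was 44.0 to 84.3 CPM in the 6 libraries of positive clock score and 19.6 to 34.3 CPM in the 6 of negative score, so the states did not overlap over all doses together or within any dose group. Of all genes tested, 7.63% were higher in the positive libraries within all 4 groups and 6.78% were lower within all 4. The Pearson r of its log2 CPM with the clock score was 0.87 over the 12 libraries, which share dose groups, and it is given as a description.

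The dose comparisons of Ppara were uncertain, and those of 3 and 30 µg/kg with vehicle changed sign when 1 library was left out. The top dose differed from vehicle by 0.40 on the log2 scale (SE 0.47, edgeR adjusted p = 0.673), and without replicate 2 of 30 µg/kg, the highest library, it was -0.05 (adjusted p = 0.969). Without vehicle replicate 1, the lowest of its group, it was 0.14 (adjusted p = 0.915). At 3 and 10 µg/kg the changes were -0.21 and -0.31 (SE 0.48 for both). With the score as a covariate, the changes at 3, 10 and 30 µg/kg were 0.12, 0.18 and 0.52 (SE 0.24, 0.25 and 0.23), with adjusted p-values of 0.879, 0.762 and 0.161. Within the positive state alone, the values were 49.2 and 49.4 CPM in vehicle, 60.4 at 3 µg/kg, 52.9 at 10 µg/kg, and 44.0 and 84.3 at 30 µg/kg. Within the negative state they were 23.5 in vehicle, 25.9 and 19.6 with 3 µg/kg, 20 and 25.7 with 10 µg/kg, and 34.3 with 30 µg/kg. The library with the highest level in each state thus came from 30 µg/kg, and the other library of that dose in the positive state was the lowest there.

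Plin2 (ENSMUSG00000028494, chromosome 4, 86648386 to 86670060) was the other member that separated by clock state within all 4 groups. It had 21.4, 30.5 and 26.6 CPM in vehicle and 26.0, 21 and 17.8 CPM at 3 µg/kg. It had 21.8, 20.1 and 17.6 CPM at 10 µg/kg and 22.8, 28.3 and 19.9 CPM at 30 µg/kg. The positive libraries were between 21.8 and 30.5 CPM and the negative ones between 17.6 and 21.4 CPM, so the gap between the states was narrow. Its r with the clock score was 0.81, and that with Ppara was also 0.81. The log2 changes from vehicle at 3, 10 and 30 µg/kg were -0.28, -0.40 and -0.15 (SE 0.17 for each), with edgeR adjusted p-values of 0.561, 0.285 and 0.661. Adjusted for clock score, the changes at 3 and 10 µg/kg were -0.16 (SE 0.12, adjusted p = 0.629) and -0.23 (SE 0.13, adjusted p = 0.395), both moves of over 1.5 times. Each of these groups held 1 positive library against 2 in vehicle.

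The remaining tested members did not separate by clock state. Positive libraries lay above negative ones in 2 groups for Cpt1a and in 1 group each for Acadm, Ehhadh, Pdk4 and Angptl4. They lay below in 1 group for Acadm and in 2 groups each for Ehhadh and Pdk4. The r with the clock score was between -0.35 for Ehhadh and 0.24 for Cpt1a. With other scalings (DESeq2 size factors, or CPM of the gene total, both chosen after seeing the data), the number of members separated within all 4 groups was again 2.

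**Figure D3:**
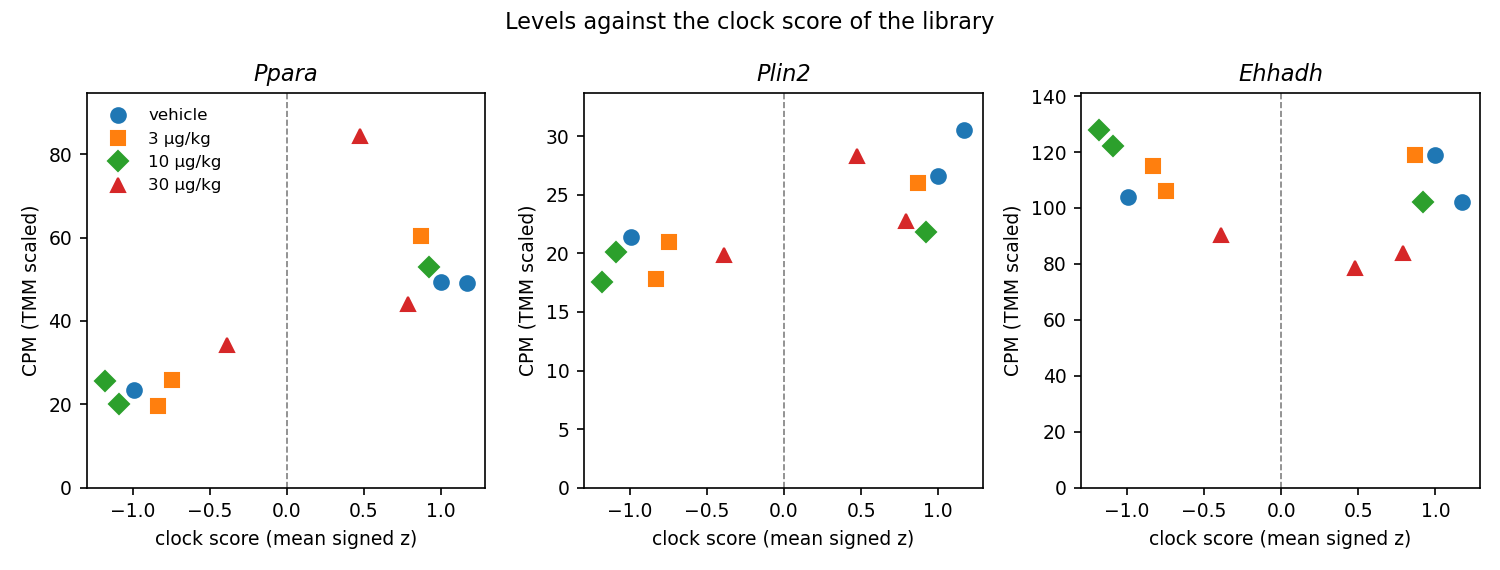
CPM (y axes from 0) of Ppara, Plin2 and Ehhadh against the clock score of the library (x axes, mean signed z over 9 clock transcripts), with a symbol for each dose. Ppara lies between 44.0 and 84.3 CPM to the right of the dashed line at 0 and between 19.6 and 34.3 CPM to its left, and Ehhadh is lowest in the 3 libraries of 30 µg/kg on both sides.

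Cyp4a10 (ENSMUSG00000066072, chromosome 4, 115518264 to 115533649) was at the limit of detection. It had 5, 1 and 4 counts in vehicle, 0, 0 and 0 with 3 µg/kg, 0, 0 and 3 with 10 µg/kg, and 3, 3 and 4 with 30 µg/kg, or 23 counts in all. A count of 3 equals 0.139 to 0.267 CPM in these libraries, and the highest library had 0.282 CPM. No difference was detectable at this depth, and no fold or test is given. Of the 50-base stretches of its transcripts, 29.8% also occur in transcripts of Cyp4a32 or Cyp4a31, and reads from such stretches could belong to either gene, so its count is uncertain. The share of stretches shared with any other gene was between 0 and 2.57% for the other members.

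A monotone dose response was also tested without a model. The Jonckheere-Terpstra statistic was compared with all 369600 arrangements of the 12 libraries (two-sided exact permutation test, smallest p 5.41e-06), and p-values were adjusted over all genes tested. None of the 7 members passed, and none had an unadjusted exact p under 0.05, while 1.89% of all genes passed. The exact p-values were between 0.0749 for Cpt1a and 0.835 for Pdk4, with adjusted values between 0.371 and 0.946. When libraries were rearranged within clock states (32400 arrangements), again no member passed, against 0.961% of all genes. Acadm alone had an unadjusted exact p under 0.05 there (exact permutation p = 0.0355, adjusted p = 0.262).

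The genes most alike to each member over the 12 libraries were found by the Pearson r of log2 CPM among tested genes with a mean of at least 5 CPM. They are a description, since the libraries share dose and clock state. For Ppara they were Ndrg1 (r = 0.96), Fchsd2 (0.96) and Zfp623 (0.95), of which Fchsd2 and Zfp623 were also higher in positive libraries within all 4 groups. For Plin2 they were Adcy6 (0.94), Bcl9l (0.93) and Epas1 (0.93). For Ehhadh they were Dcbld1 (0.95), 4930402H24Rik (0.93) and Camk2d (0.93). For Cpt1a they were Acad12 (0.91), Ech1 (0.87) and Rab27a (0.86), and for Acadm Akr1b7 (0.88), Tmco6 (0.86) and Arap3 (0.83). For Pdk4 they were Als2cl (0.9), Atat1 (0.89) and Cyp3a11 (0.88), and for Angptl4 Kctd14 (0.88), Atg2b (0.86) and Echdc2 (0.85). Among the members themselves, r was highest for Ppara with Plin2 (0.81), Acadm with Angptl4 (0.74) and Pdk4 with Angptl4 (0.73), and lowest for Ehhadh with Ppara and with Cpt1a (-0.51 for both).

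The rest of the pathway was described with 12 lists that hold 121 other genes, from receptors to lipid droplet proteins, of which 103 were tested. None was called at 3 or 10 µg/kg with edgeR, where 12 and 16 genes had an unadjusted p under 0.05 (11.7% and 15.5%, against 11.4% and 15.9% of all genes). DESeq2 called 0 and 1 of them, and limma-voom none. At 30 µg/kg, 6 of 103 were called, 4 higher and 2 lower, beside 3.08% of all genes called higher and 0.891% called lower. The median log2 change over the lists was -0.02, equal to that of all genes. Between 30 and 10 µg/kg, 4 were called, 2 in each direction (2.17% of all genes called higher and 0.607% lower). The trend called 3, all higher (2.53% of all genes called higher and 0.752% lower), and the test of any difference passed 10 (6.78% of all genes).

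Among fatty acid uptake and binding genes, 2 of 12 were called higher at 30 µg/kg (3.08% of all genes) and none lower (0.891%). Cd36, a fatty acid translocase, had 109, 93.7 and 60.2 CPM in vehicle and 132, 172 and 184 CPM at 30 µg/kg, and these groups did not overlap. Its log2 change was 0.89 (SE 0.22, edgeR adjusted p = 0.0343), and 0.89 over the dose range in the trend test (adjusted p = 0.0204, and 0.0609 and 0.0859 without replicates 2 or 3 of 30 µg/kg). The call at 30 µg/kg was lost without vehicle replicate 2 (adjusted p = 0.0824), vehicle replicate 3 (0.0985), or replicates 2 or 3 of 30 µg/kg (0.0915 and 0.111). Macrophages also express Cd36, and the 5 macrophage markers, all detected in every library, summed to between 61.8 and 68.4 CPM at 30 µg/kg and between 29.8 and 52.5 CPM in the 9 other libraries. The part of macrophages in the Cd36 level was not tested. Dbi, the acyl-CoA binding protein, had 230.5, 193 and 186 CPM in vehicle and 321, 304 and 333 CPM at 30 µg/kg. It rose by 0.65 (SE 0.13, adjusted p = 0.0091), a call that held in all 12 fits that left out a library and was lost with a length and GC trend removed (0.50, adjusted p = 0.0294). The other calls of Dbi were less stable. Its call between 30 and 10 µg/kg (edgeR adjusted p = 0.0137) held in 9 of 12 such fits. Its trend call (edgeR adjusted p = 0.0456) held in 3 of 12, and was also lost with limma-voom (adjusted p = 0.0616). Fabp2, the intestinal fatty acid binding protein and the most abundant gene of this list in CPM, had a log2 change of 0.35 (SE 0.2, adjusted p = 0.324).

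Of 10 receptors and co-regulators, 1 was called higher at 30 µg/kg, beside 3.08% of all genes. Ppard, which encodes the related receptor PPARδ, had 204, 148 and 149.5 CPM in vehicle and 261, 223 and 283 CPM at 30 µg/kg (log2 change 0.61, SE 0.16, edgeR adjusted p = 0.041). This call did not hold without vehicle replicates 2 or 3 (adjusted p = 0.145 and 0.138), replicate 3 of 10 µg/kg (0.0551), or replicates 1 or 3 of 30 µg/kg (0.11 and 0.134). It was also lost with the library index as a covariate (0.0692) or with only the groups compared (0.0503).

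In the peroxisomal list, to which Ehhadh is closest in function, 1 of 16 genes was called higher at 30 µg/kg (3.08% of all genes). Acaa1b, a peroxisomal thiolase, had 9.59, 5.0 and 5.62 CPM in vehicle, 8.35, 10.7 and 15.1 CPM at 10 µg/kg, and 9.14, 17.9 and 16.5 CPM at 30 µg/kg. The top dose was higher than vehicle by 1.10 on the log2 scale (SE 0.3, edgeR adjusted p = 0.0466), with vehicle replicate 1 above replicate 1 of 30 µg/kg. The call held in 5 of 12 fits that left out a library and was lost without vehicle replicates 2 or 3 (adjusted p = 0.163 and 0.149), replicates 2 or 3 of 3 µg/kg (0.0637 and 0.059), replicate 2 of 10 µg/kg (0.0674), or replicates 2 or 3 of 30 µg/kg (0.144 and 0.138). It was also lost with the library index as a covariate (0.0993), a length and GC trend removed (0.078) or only the groups compared (0.0821). With limma-voom the adjusted p was 0.0519. Ech1 and Acox3 passed the test of any difference (adjusted p = 0.0336 and 0.0255). Ech1 had a log2 change of 0.45 from 10 to 30 µg/kg (SE 0.11, adjusted p = 0.0386), and Acox3 one of -0.43 (SE 0.09, adjusted p = 0.0225), so these 2 enzymes lay in opposite directions. The call of any difference held in 5 of 12 fits that left out a library for each. For Ech1 it was lost without vehicle replicate 2 (0.0501), replicates 2 or 3 of 3 µg/kg (0.0696 and 0.0681), replicates 1 or 2 of 10 µg/kg (0.0507 and 0.0543), or replicates 2 or 3 of 30 µg/kg (0.127 and 0.0923). It was also lost for Ech1 with the library index as a covariate (0.0661) or a length and GC trend removed (0.154). For Acox3 it was lost without vehicle replicate 2 (0.0511), replicate 3 of 3 µg/kg (0.0635), replicates 2 or 3 of 10 µg/kg (0.0526 and 0.0562), or replicates 1, 2 or 3 of 30 µg/kg (0.0563, 0.119 and 0.0779). It was also lost for Acox3 with the library index as a covariate (0.0644).

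None of the 17 mitochondrial beta-oxidation genes was called at 30 µg/kg from vehicle, beside 3.97% of all genes. Hadhb, a subunit of the trifunctional protein, and Eci2, an enoyl-CoA isomerase, passed the test of any difference (edgeR adjusted p = 0.0225 and 0.0379). From 10 to 30 µg/kg their log2 changes were -0.55 (SE 0.11, adjusted p = 0.0137) and 0.50 (SE 0.1, adjusted p = 0.0142), both below 1.5-fold. The call of any difference for Hadhb held in 8 of 12 fits that left out a library and was lost without replicate 2 of 10 µg/kg (0.0523) or without replicates 1, 2 or 3 of 30 µg/kg (0.0795, 0.056 and 0.0677). The call for Hadhb was also lost with the library index as a covariate (0.0557) or a length and GC trend removed (0.117). That for Eci2 held in 2 of 12 (those that left out replicate 1 of vehicle or of 3 µg/kg), and its adjusted p was otherwise between 0.0531 and 0.145, the highest without replicate 2 of 30 µg/kg. Hadh, the most abundant gene of the list in CPM, had a log2 change at 30 µg/kg of 0.23 (SE 0.11, adjusted p = 0.267).

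Among other PPARα target genes (8 tested) and omega-oxidation genes (5 tested), 1 in each list was called lower at 30 µg/kg. Of all genes tested, 0.891% were called lower at this dose. Gk, glycerol kinase, had 347, 262 and 286 CPM in vehicle and 188, 168 and 207 CPM at 30 µg/kg (log2 change -0.67, SE 0.13, edgeR adjusted p = 0.0084). Without vehicle replicate 1 its change was -0.54 (adjusted p = 0.0267), and with a length and GC trend removed it was -0.58 (adjusted p = 0.0229), both below 1.5-fold. The call of Gk between 30 and 10 µg/kg was lost in the latter setting as well (-0.54, adjusted p = 0.0424). Cyp4f16, a cytochrome P450 of the family that oxidizes the end of fatty acid chains, had 66.4, 70.7 and 83.2 CPM in vehicle and 48.4, 39.4 and 43.4 CPM at 30 µg/kg (log2 change -0.75, SE 0.12, adjusted p = 0.00367). Its call held in all 23 alternative fits. As for Ehhadh, the 3 libraries of 30 µg/kg lay below all others for both genes. Of the 103 genes of the lists, 8 lay below in this way (4.87% of all genes tested did) and 7 lay above (6.08%). The other Cyp4a genes of the list (Cyp4a12a, Cyp4a12b, Cyp4a14, Cyp4a31 and Cyp4a32) had too few counts to be tested, as had the PPARα target Fgf21.

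**Figure D4:**
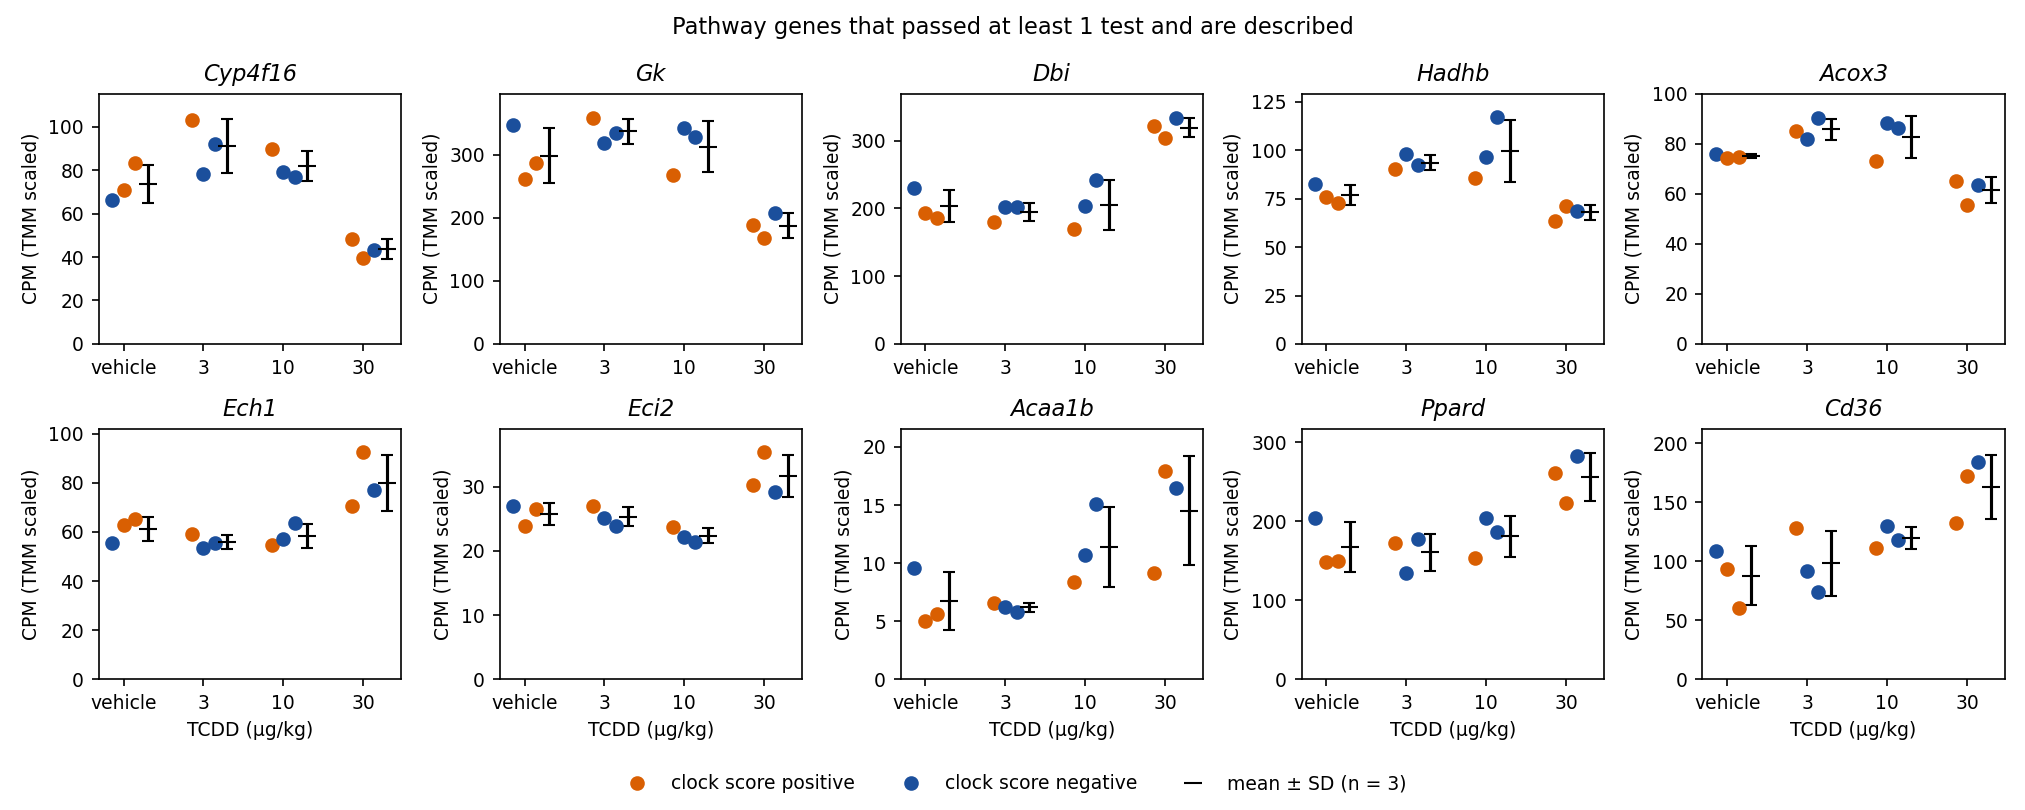
CPM (y axes from 0, one scale per gene) by TCDD dose of 10 pathway genes outside the 8 members that passed at least 1 test. Points are libraries, coloured by the sign of the clock score, and bars are the mean ± SD of 3 libraries. Cyp4f16 (39.4 to 48.4 CPM) and Gk (168 to 207 CPM) lie below all other libraries at 30 µg/kg, and Dbi (304 to 333 CPM) lies above them.

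No gene was called in any of the 5 dose comparisons in the lists for the carnitine shuttle (6 tested), acyl-CoA thioesterases (7), pyruvate dehydrogenase kinases and phosphatases (5), lipid droplet coat and lipolysis (9), the lipoprotein lipase system (3) and ketone bodies (5). Over all genes, between 0.158% (10 against 3 µg/kg) and 3.97% (30 µg/kg against vehicle) were called in these comparisons. The median log2 changes of these lists at 30 µg/kg were between -0.41 for the lipoprotein lipase system and 0.10 for the thioesterases and for the pyruvate dehydrogenase genes, beside -0.02 for all genes. Their most abundant genes in CPM were Crot, Acot12, Pdk2, Plin3, Lmf1 and Oxct1, with log2 changes at 30 µg/kg between -0.28 for Crot and 0.23 for Oxct1.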

How the data were processed

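Proximal ileal epithelium of 12 mice was measured by RNA-seq (NuGen Ovation Mouse kit). The authors deposited raw counts of reads per Ensembl gene, 1 file per library. Submitters' processing notes name FastQC 0.11.3, Trimmomatic 0.33, TopHat2 2.1.0, SAMtools 1.2.0, HTSeq 0.6.1, DESeq and build GRCm38. The annotation release and strand setting are not given in the sources used here. Entries for reads not assigned to 1 gene (60.3 to 64.6% of a library) entered neither library sizes nor tests. Reads without strand cannot be told from those of an antisense gene, and no member has an annotated overlap on either strand. Of 46078 genes, 45229 matched GENCODE M21.

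Low counts were removed with filterByExpr and libraries scaled by TMM in edgeR 4.0.16 (R 4.3.3). One quasi-likelihood model of 4 groups was fitted, with BH adjustment over 15823 genes, and a trend was fitted over dose ranks 0 to 3. A call needed an adjusted p under 0.05 and 1.5-fold, the fold in the study's methods. Standard errors came from the F statistic. CPM is scaled by TMM, and log2 CPM used a prior count of 2. The p-values of this model rest on an estimate of spread per gene that all 4 groups of 3 animals share. They do not rest on the spread within the compared groups alone. Alternatives were scaling by median ratios, by upper quartiles, or by TMM with genes above 1% of a library set aside, no filter or at least 10 counts in every sample, DESeq2 1.42.0, limma-voom (limma 3.58.1), only the groups compared, the clock score or library index as a covariate, a length and GC trend removed, and each library left out. The scripts were tested on simulated data. The clock score is the mean z of log2 CPM of Dbp, Tef, Per3, Nr1d1, Nr1d2 and Ciart and of sign-reversed Arntl, Npas2 and Clock. The floor of 3 counts covers counting error only.

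The genes named are the 8 members, pathway genes that passed any test (12), the gene of highest mean CPM in each list, and the 3 tested genes most alike to each member. Of these, 3 pathway genes are not reported here. The members and lists were chosen with earlier results of these data known.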

Additional observations from a re-analysis of the deposited data

How the results depend on the processing

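No paired analysis was possible because the labels give no replicate numbers. Over all genes, the calls at 3 µg/kg (36) were 71 without a filter on low counts, 23 with at least 10 counts in every sample, 18 with the library index as a covariate, 6 with only the groups compared and 84 with DESeq2. Those at 10 µg/kg (97) were 215 without a filter, 59 with the index and 262 with DESeq2. Those between 10 and 3 µg/kg (25) were 43 without a filter, 13 with at least 10 counts and 43 with DESeq2. Genes with any difference (1073) were 2037 with the clock score, 636 with the index and 2143 with DESeq2. Leaving out a library gave 19 to 162 calls at 3 µg/kg, 45 to 198 at 10 µg/kg, 188 to 543 between 30 and 10 µg/kg, 9 to 27 between 10 and 3 µg/kg, 297 to 640 in the trend and 562 to 1745 for any difference. The members with any difference (1) were 2 without a filter, where Pdk4 was added (adjusted p = 0.0405), 0 with the index or with the length and GC trend removed, and 0 to 1 when a library was left out. Members called between 30 and 10 µg/kg (0) were 0 to 1 when a library was left out.

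Pathway genes called at 10 µg/kg (0) were 2 without a filter, 2 with the clock score and 1 with DESeq2, and those between 10 and 3 µg/kg (0) were 1 without a filter, with only the groups compared or with DESeq2, and 0 to 1 when a library was left out. With the length and GC trend removed, 3 were called at 30 µg/kg (6) and 1 between 30 and 10 µg/kg (4). In the trend (3), 7 were called with the clock score, 1 with the index and 6 with DESeq2, and for any difference (10) 20, 4 and 17. Leaving out a library gave 3 to 6 at 30 µg/kg, 0 to 5 in the trend and 3 to 15 for any difference.

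Several uncalled log2 changes of members turned sign. Ppara was 0.12 at 3 µg/kg and 0.18 at 10 µg/kg with the clock score, and, when a library was left out, -0.85 to 0.08 at 3 µg/kg, -0.05 to 0.65 at 30 µg/kg and -0.11 to 0.57 in the trend. Angptl4 at 10 µg/kg was 0.01 with the clock score, 0.03 with the index, 0.00 with the length and GC trend removed, 0.02 with limma-voom and -0.44 to 0.51 when a library was left out, and at 3 µg/kg it was then -0.17 to 0.66. Pdk4 was -0.68 to 0.14 at 10 µg/kg when a library was left out, positive without vehicle replicate 1, and Acadm was -0.01 between 30 and 10 µg/kg without replicate 2 of 30 µg/kg. Between 10 and 3 µg/kg, leaving out a library gave -0.62 to 0.54 for Ppara, -0.59 to 0.16 for Angptl4, -0.1 to 0.46 for Pdk4, -0.24 to 0.04 for Plin2, -0.04 to 0.06 for Acadm and -0.01 to 0.14 for Ehhadh, and with 1 or more of the other settings Pdk4 (lowest -0.02), Ppara (highest 0.06) and Acadm (highest 0.02) turned sign. The Jonckheere-Terpstra statistic turned sign in some fits that left out a library for Pdk4 (adjusted exact p 0.752 to 1 over these fits) and Ppara (0.737 to 1). The causes were not tested.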

Other observations

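Clock state also separated other genes of the pathway. Of the 103 tested genes of the 12 lists, 18 (17.5%) were higher in the libraries of positive clock score within all 4 dose groups, beside 7.63% of all genes tested, and 8 (7.77%) were lower, beside 6.78%. Among the higher ones, Acox2, a peroxisomal oxidase of branched-chain and bile acid intermediates, was between 19.7 and 40.3 CPM in positive libraries and between 6.28 and 16.3 CPM in negative ones. Creb3l3, a transcription factor of the liver and intestine that works with PPARα, was between 476 and 609 and between 318 and 398 CPM. Gpd1, which makes glycerol 3-phosphate, was between 458 and 542 and between 288 and 338 CPM. Cidec, a lipid droplet protein that is also among the 6 adipocyte markers, was between 60.0 and 67.1 and between 37.0 and 47.2 CPM.

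Among the lower ones, Vnn1, a pantetheinase known as a PPARα target, was between 43.0 and 104 CPM in positive libraries and between 167 and 234 CPM in negative ones. Slc25a20, the mitochondrial carnitine carrier, was between 40.3 and 59.8 and between 60.4 and 80.4 CPM, and Etfdh, which passes electrons from beta-oxidation to the respiratory chain, between 60.7 and 73.7 and between 79.0 and 88.1 CPM. Genes of fatty acid oxidation thus lay on both sides. The states were set from clock transcripts measured in the same libraries, no test was made between them, and these genes were chosen from the separated ones after their values were seen.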
